A study of Mus musculus with 31 samples.

Results

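The genes that copy DNA were examined as a set of 43 members, chosen by name: the rows of 2 tables of gene expression that carry a listed gene symbol, 43 of the 38283 genes in each table. RNA had been sequenced from cells of the postnatal day 2 pancreas of C57BL/6 mice, sorted into YFP+ mesenchymal and YFP- non-mesenchymal cells, and the values are FPKM (fragments per gene, divided by transcript length and library size). In the Igf2 model, 4 control libraries (Igf2+/+; Nkx3.2Cre/+) and 3 mutant libraries (Igf2+/fl; Nkx3.2Cre/+) of non-mesenchymal cells were compared. In the H19DMD model, 3 control (H19DMD+/+; Nkx3.2+/Cre) and 4 mutant (H19DMDfl/+; Nkx3.2+/Cre) libraries were compared in each cell fraction. Every group, controls included, carried the Nkx3.2 Cre, which is active in the mesenchyme, so non-mesenchymal cells of a mutant are cells beside a changed mesenchyme. The study was designed to delete Igf2 from the mesenchyme or to raise it there, against littermate controls. Igf2, a fetal growth factor, is an imprinted gene transcribed from the paternal copy, and the H19DMD is the control region whose loss on the maternal copy turns Igf2 on there. The mesenchymal libraries of the Igf2 model and 1 control library of each H19DMD fraction were not analysed here. The labels do not say which libraries share an animal or whether a library pools animals, so the p-values measure the spread between these libraries, which may be technical.

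DNA is copied once per cell cycle. The origin recognition complex, CDC6 and CDT1 load the MCM helicase onto origins before S phase, and CDC45 and the GINS complex join MCM to form the helicase that unwinds DNA. Primase and polymerase alpha start each strand, the clamp loader RFC places the sliding clamp PCNA, polymerases delta and epsilon extend the strands, and FEN1 and DNA ligase 1 join the fragments of the lagging strand. Many of these genes are known targets of E2F factors and are transcribed before and during S phase. In the newborn pancreas, acinar, endocrine, ductal and mesenchymal cells are still dividing. In RNA from sorted pools, fewer dividing cells and less RNA of these genes per cell cannot be told apart.

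The labels were checked first. Igf2 was at 3849 ± 189 FPKM (SD, n = 3) in H19DMD mesenchymal controls and 7039.7 ± 799.8 (SD, n = 4) in the mutants, with no overlap between libraries. The Igf2 model has no such check here, since its mesenchymal libraries were not analysed. The summed FPKM of 9 mesenchymal markers was 6061 to 7117 in mesenchymal controls and 5533 to 6864 in mesenchymal mutants, against 168 to 204 and 161 to 283 in the non-mesenchymal groups. The 8 acinar markers summed to 37453 to 101109 FPKM in non-mesenchymal controls and 602 to 1353 in mesenchymal controls, where Pnlip and Ptf1a were listed at 0. The 2 models are in separate tables and their library names carry different prefixes, so a difference between models cannot be told apart from one between tables, and values were compared within a table only. Across all genes whose mean reached 1 FPKM, Pearson's r between libraries of 1 group was 0.743 to 0.811, and the depth of the libraries is unknown.

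Promoter sequence was read from RefSeq windows of 300 bases on GRCm38.p6, from 250 bases before a transcription start to 50 after it, which were found for 36 of the 43 members (44 windows). No window was found for Gins1, Gins2, Gins4, Mcm4, Pole, Prim2 or Rfc2. E2F letters were searched as TTTCCCGC, TTTCGCGC, TTTGCCGC and TTTGGCGC on both strands, and these can overlap, since a palindromic core can match on each strand. They were present in 16 of 44 member windows (36.4%), against 2.26% of all 32851 windows. The members holding them were Orc1, Cdc6, Cdt1, Mcm3, Mcm5, Mcm6, Mcm7, Gins3, Pola1, Pold1, Pold3, Pole2, Rfc3, Lig1, Uhrf1 and Dnmt1. Other sets of letters separate these genes from a list of 22 genes of mitosis. The cell cycle homology region, searched as TTTGAA and TTCGAA on both strands, was in 18.2% of member windows, 19.2% of all windows and 16 of 20 mitosis windows. CCAAT on either strand was in 59.1% of member windows, 37.4% of all windows and 18 of 20 mitosis windows, whereas the E2F letters were in 1 of those 20. These are matches of letters, not measured binding.

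The 60-base stretches below show the E2F letters upstream of 5 members for which the stretch lies in no annotated exon. Each is printed 5′ to 3′ on the gene's strand with the matching letters in capitals: Mcm6 at chr1:128359782-128359841 (minus strand), Mcm5 at chr8:75109332-75109391 (plus), Pola1 at chrX:93632260-93632319 (minus), Cdc6 at chr11:98907987-98908046 (plus) and Uhrf1 at chr17:56304102-56304161 (plus), all on GRCm38.p6 from RefSeq. The last 2 lie before the RefSeq start but inside the gene as GENCODE M21 annotates it.
Mcm6: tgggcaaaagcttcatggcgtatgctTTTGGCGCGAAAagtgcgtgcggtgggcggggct
Mcm5: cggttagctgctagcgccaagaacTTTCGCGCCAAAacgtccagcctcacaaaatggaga
Pola1: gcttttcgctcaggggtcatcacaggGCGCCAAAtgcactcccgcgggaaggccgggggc
Cdc6: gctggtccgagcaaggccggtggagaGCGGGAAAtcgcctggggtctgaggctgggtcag
Uhrf1: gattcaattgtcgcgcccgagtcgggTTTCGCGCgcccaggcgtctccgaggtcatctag
In Mcm6 and Mcm5 matches on opposite strands overlap, which makes the run of capitals longer than 8 letters.

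The members covered a wide range of levels. On the FPKM scale, which is per length, Lig1 (DNA ligase 1) was the highest in both tables, with a mean of 90.6 FPKM over the 14 H19DMD libraries and 117 over the 7 Igf2 libraries. Pold3, a subunit of polymerase delta, was next in both (64.7 and 78.1 FPKM), and the sliding clamp Pcna followed in the H19DMD table (43.9 FPKM). Gins3 was the lowest of the members that could be tested, at 1.65 FPKM over the H19DMD libraries, although it forms 1 complex with Gins2, which was at 31.9 FPKM. Gse1 covers 67.3% of the exon bases of Gins2 from the opposite strand, and the use of strand in counting is not given in the sources used here, so the level of Gins2 is uncertain.

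Within the 6 subunits of the MCM2 to MCM7 ring, Mcm7 had the highest and Mcm5 the lowest group mean in all 6 groups, with a ratio of 3.25 to 5.305 between them. In the clamp loader, Rfc1, the large subunit, had the highest group mean in all 6 groups, and the lowest was Rfc2 in 5 groups and Rfc4 in mesenchymal controls. Fen1, the flap endonuclease, was listed near 0: it read 0.230 to 0.530 FPKM in the Igf2 libraries and 0 to 1.36 in the H19DMD libraries. Gm10143 covers 78.8% of its exon bases from the opposite strand and was itself listed at 0.836 to 6.05 FPKM over all libraries, so the level of Fen1 is uncertain. Fen1 was the only member below the mean of 1 FPKM required for a test, so 42 of 43 members entered every comparison.

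**Figure D1:**
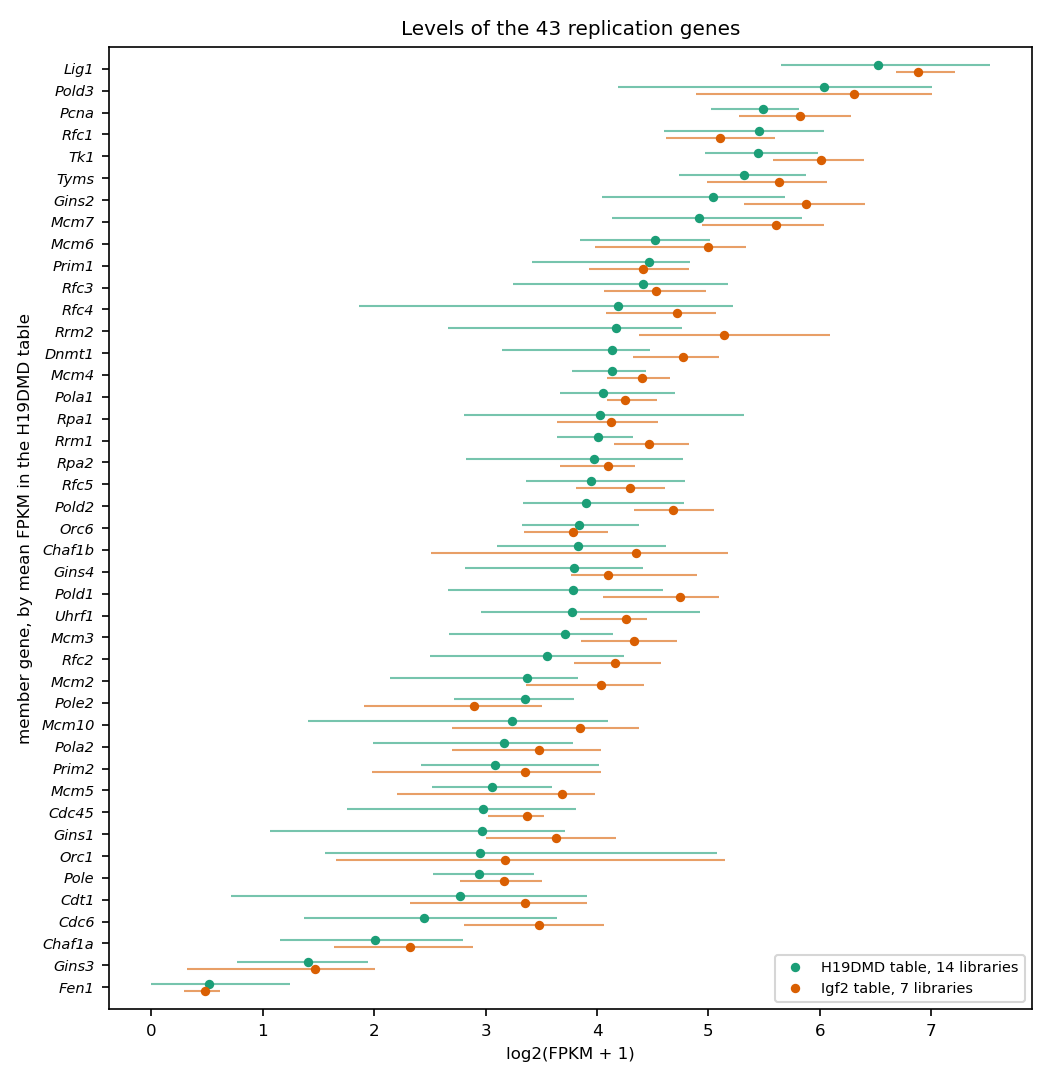
Mean (point) and range over libraries (line) of log2(FPKM + 1) for each of the 43 members, in the H19DMD table (14 libraries) and the Igf2 table (7 libraries), ordered by the H19DMD mean. Lig1 is highest and Fen1 lowest in both tables, and in the H19DMD table the lines of Orc1, Rfc4 and Pold3 are among the widest.

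Libraries of 1 group differed more for some members than for others. The pooled SD within groups, on the log2(FPKM + 1) scale, had a median of 0.388 over the 42 members in the H19DMD table, against 0.427 over all genes whose mean reached 1 FPKM. It was largest for Orc1 (0.942 in the H19DMD table and 1.099 in the Igf2 table), a subunit of the origin recognition complex. Orc1 read 32.8 FPKM in mesenchymal mutant 2 and 3.32 in mesenchymal mutant 4. The steadiest members of the H19DMD table were Rrm1, the large subunit of ribonucleotide reductase (0.150), Mcm6 (0.180) and Pcna (0.187). Exons of another gene overlap those of 15 members, by over 10% in 7 of them: Fen1, Gins2, Chaf1a, Rfc2, Rfc4, Orc1 and Rfc5, all from the opposite strand. A processed pseudogene at least 95% identical over at least 400 bases exists for Cdc6, Mcm7, Pcna, Rfc5, Rrm2 and Uhrf1. Reads of these genes could be split or shared, so their levels are uncertain.

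The origin licensing members are Orc1, Orc6, Cdc6 and Cdt1. Orc6, a subunit of the origin recognition complex and the highest of them, read 9.02, 14.9 and 10.6 FPKM in mesenchymal controls, 12.3, 9.28, 13.02 and 11.1 in mesenchymal mutants, 10.8, 19.8 and 12.1 in non-mesenchymal controls and 19.6, 17.4, 14.1 and 11.98 in non-mesenchymal mutants. In the Igf2 table it read 16.2, 9.33, 9.14 and 14.1 FPKM in controls and 13.8, 13.7 and 13.4 in mutants. All groups overlapped for Orc6. Mcm7, the highest subunit of the helicase ring, read 27.7, 21.6 and 29.2 FPKM in mesenchymal controls, 24.9, 19.3, 16.98 and 16.6 in mesenchymal mutants, 28.7, 38.02 and 33.03 in non-mesenchymal controls and 29.6, 29.6, 36.1 and 56.4 in non-mesenchymal mutants. In the Igf2 table it read 64.8, 35.4, 29.7 and 53.7 FPKM in controls and 37.3, 61.3 and 51.7 in mutants. Mesenchymal mutants lay below every non-mesenchymal library for Mcm7, and the 2 Igf2 groups overlapped. Gins2, of the GINS complex, read 27.1, 24.6 and 47.8 FPKM in mesenchymal controls, 21.6, 28.03, 15.5 and 33.4 in mesenchymal mutants, 26.3, 34.3 and 50.4 in non-mesenchymal controls and 18.5, 31.7, 44.1 and 42.6 in non-mesenchymal mutants. Its groups overlapped in that table, and non-mesenchymal control 3 was the highest library.

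Rpa1, the large subunit of the single-strand binding protein RPA, read 25.7, 13.3 and 10.997 FPKM in mesenchymal controls, 12.2, 6.02, 9.86 and 20.3 in mesenchymal mutants, 12.3, 11.8 and 38.9 in non-mesenchymal controls and 15.3, 10.5, 10.7 and 16.8 in non-mesenchymal mutants. Its values in the Igf2 table were 15.04, 11.5, 17.4 and 17.8 FPKM in controls and 16.7, 22.3 and 14.3 in mutants. The groups overlapped, and 1 library was far above its group: 38.9 FPKM in non-mesenchymal control 3 against 12.3 and 11.8 in the other controls. Prim1, the catalytic subunit of primase, read 26.1, 23.8 and 16.9 FPKM in mesenchymal controls, 18.4, 14.7, 9.66 and 20.95 in mesenchymal mutants, 19.4, 25.9 and 26.2 in non-mesenchymal controls and 21.9, 19.6, 24.3 and 27.5 in non-mesenchymal mutants. For Prim1 the Igf2 table gave 19.8, 27.3, 17.9 and 14.2 FPKM in controls and 21.5, 20.5 and 20.6 in mutants. Mesenchymal mutant 3 was the lowest of the 14 libraries for Prim1. Pold3 read 36.6, 43.7 and 71.6 FPKM in mesenchymal controls, 63.4, 34.9, 38.7 and 17.2 in mesenchymal mutants, 56.2, 98.2 and 124 in non-mesenchymal controls and 34.9, 128, 61.3 and 97.6 in non-mesenchymal mutants. The Igf2 table listed Pold3 at 45.4, 128, 94.1 and 77.6 FPKM in controls and 28.7, 109 and 64.5 in mutants. All groups overlapped for Pold3, and libraries of 1 group differed severalfold.

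Pcna read 32.98, 43.4 and 42.1 FPKM in mesenchymal controls, 40.4, 31.5, 40.3 and 32.5 in mesenchymal mutants, 44.4, 55.3 and 49.2 in non-mesenchymal controls and 52.03, 41.2, 53.9 and 54.6 in non-mesenchymal mutants. It read 70.2, 76.6, 43.8 and 44.8 FPKM in controls and 37.8, 58.2 and 58.3 in mutants in the Igf2 table. For Pcna, 2 of the mesenchymal mutants and mesenchymal control 1 were the lowest of the 14 libraries. Lig1 read 76.9, 65.999 and 71.3 FPKM in mesenchymal controls, 71.9, 74.7, 49.4 and 55.4 in mesenchymal mutants, 66.3, 125 and 133 in non-mesenchymal controls and 101, 103, 91.5 and 183 in non-mesenchymal mutants. In the Igf2 model Lig1 read 147, 124, 104 and 111 FPKM in controls and 102, 115 and 116 in mutants. All 7 mesenchymal libraries were below every non-mesenchymal library except control 1 for Lig1. Tk1, the thymidine kinase of the salvage route to dTTP, read 51.1, 40.97 and 56.002 FPKM in mesenchymal controls, 36.6, 49.4, 39.2 and 62.4 in mesenchymal mutants, 36.9, 40.7 and 41.4 in non-mesenchymal controls and 34.2, 34.7, 30.3 and 43.3 in non-mesenchymal mutants. For Tk1 the Igf2 model gave 66.6, 56.8, 46.8 and 60.5 FPKM in controls and 83.1, 76.7 and 53.3 in mutants. The groups of both tables overlapped for Tk1, and its highest library of the H19DMD table was mesenchymal mutant 4.

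The other members are given by their lowest and highest group mean ± SD (n = 3 for controls, n = 4 for mutants) of the 4 H19DMD groups. Of the licensing genes, Cdc6, which recruits CDT1 and MCM to the origin, ranged from 3.27 ± 1.85 FPKM in mesenchymal mutants to 7.16 ± 3.94 in non-mesenchymal controls. Cdt1, which carries MCM to the origin, ranged from 3.54 ± 2.19 FPKM in mesenchymal mutants to 8.42 ± 3.78 in non-mesenchymal mutants. Orc1 ranged from 3.1003 ± 1.73 FPKM in non-mesenchymal controls to 12.3 ± 14.2 in mesenchymal mutants, with an SD larger than the mean in the highest group. In the helicase ring, Mcm2 ranged from 7.28 ± 3.13 FPKM in mesenchymal mutants to 11.1 ± 1.86 in non-mesenchymal controls. Mcm3 ranged from 10.7 ± 4.21 FPKM in mesenchymal mutants to 13.9 ± 3.02 in non-mesenchymal mutants. Mcm4 ranged from 15.1 ± 1.69 FPKM in non-mesenchymal controls to 18.03 ± 2.31 in non-mesenchymal mutants. Mcm2 and Mcm3 were thus lowest in mesenchymal mutants and Mcm4 in non-mesenchymal controls. Mcm5 ranged from 5.97 ± 1.196 FPKM in mesenchymal mutants to 8.695 ± 1.84 in non-mesenchymal mutants. Mcm10, which helps to activate the assembled helicase, ranged from 4.77 ± 3.02 FPKM in mesenchymal mutants to 11.9 ± 4.49 in non-mesenchymal mutants. The GINS genes follow, without Gins2, whose values are given above. Gins1 ranged from 4.85 ± 3.47 FPKM in mesenchymal mutants to 8.497 ± 3.12 in non-mesenchymal mutants. Gins4 ranged from 11.8 ± 2.09 FPKM in mesenchymal controls to 15.01 ± 3.92 in non-mesenchymal mutants. Gins3 ranged from 1.33 ± 0.574 FPKM in non-mesenchymal mutants to 1.95 ± 0.832 in non-mesenchymal controls. Gins1 and Gins4 were highest in non-mesenchymal mutants and Gins3 in non-mesenchymal controls.

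Rpa2, the middle subunit of RPA, ranged from 12.8 ± 2.98 FPKM in non-mesenchymal controls to 19.6 ± 6.35 in mesenchymal controls. Of the polymerase alpha and primase complex, the catalytic subunit Pola1 ranged from 12.8 ± 1.36 FPKM in non-mesenchymal mutants to 17.9 ± 4.48 in mesenchymal controls. Pola2, its accessory subunit, ranged from 6.69 ± 3.44 FPKM in non-mesenchymal controls to 9.88 ± 3.15 in mesenchymal controls. Prim2, the large primase subunit, ranged from 6.28 ± 1.95 FPKM in non-mesenchymal controls to 10.3 ± 4.41 in mesenchymal controls. These 3 genes had their highest mean in mesenchymal controls and their lowest in a non-mesenchymal group. Pold1, the catalytic subunit of polymerase delta, ranged from 11.5 ± 3.51 FPKM in non-mesenchymal mutants to 15.97 ± 6.72 in non-mesenchymal controls. Pold2 ranged from 10.8 ± 0.751 FPKM in non-mesenchymal controls to 16.5 ± 3.16 in mesenchymal controls. Pole, the catalytic subunit of polymerase epsilon, ranged from 5.61 ± 0.836 FPKM in non-mesenchymal controls to 8.02 ± 1.61 in mesenchymal controls. Pole and Pole2, the members from polymerase epsilon, both had their lowest mean in a non-mesenchymal group. Pole2 ranged from 7.78 ± 2.42 FPKM in non-mesenchymal mutants to 11.4 ± 1.29 in mesenchymal controls. In the clamp loader, Rfc3 ranged from 16.6 ± 4.57 FPKM in mesenchymal mutants to 23.2 ± 2.44 in non-mesenchymal controls. Rfc4 ranged from 8.41 ± 3.76 FPKM in mesenchymal controls to 26.3 ± 4.96 in non-mesenchymal mutants. Rfc4 thus had the widest span of group means among the 5 loader genes, as a ratio. Rfc5 ranged from 11.7 ± 3.15 FPKM in non-mesenchymal controls to 16.3 ± 7.11 in mesenchymal mutants. Of the genes that supply nucleotides, Rrm1 ranged from 13.3 ± 1.66 FPKM in mesenchymal mutants to 17.7 ± 1.34 in mesenchymal controls. Rrm2 ranged from 12.3 ± 5.11 FPKM in mesenchymal mutants to 22.5 ± 3.27 in non-mesenchymal controls. Rrm1 and Rrm2 both had their lowest mean in mesenchymal mutants. Tyms, thymidylate synthase, ranged from 33.6 ± 7.76 FPKM in mesenchymal mutants to 49.8 ± 6.74 in non-mesenchymal controls. Chaf1a, the large subunit of the chromatin assembly factor CAF-1, ranged from 2.51 ± 0.658 FPKM in non-mesenchymal controls to 4.08 ± 1.73 in mesenchymal controls. Chaf1b, its partner, ranged from 9.59 ± 1.49 FPKM in mesenchymal controls to 16.4 ± 6.03 in non-mesenchymal mutants. CAF-1 places histones on new DNA. The lowest mean of Chaf1a was nearly tied with that of mesenchymal mutants (2.53 ± 1.08 FPKM). Uhrf1 ranged from 9.702 ± 3.37 FPKM in mesenchymal mutants to 17.96 ± 9.88 in mesenchymal controls.

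Non-mesenchymal cells of the Igf2 model were compared between mutants and controls, which asks whether cells beside an Igf2-deleted mesenchyme differ in the RNA of the replication genes. Of the 42 members tested, 0 passed an adjusted p of 0.05 (limma with Benjamini-Hochberg adjustment over all 17441 genes tested), where 0.0631% of all genes did. At an unadjusted p under 0.05 there was 1 of 42, Gins2, against 5.28% of all genes, and groups did not overlap in 0 of 42, against 6.02% of all genes. The members' median log2 difference, mutant minus control, was -0.15 and that of all genes -0.028, with 26 of 42 members below 0 (61.9% against 52.9% of all genes). Gins2 read 83.7, 75.1, 58.1 and 53.6 FPKM in controls and 38.9, 39.9 and 55.3 in mutants, so the highest mutant library lay above only the lowest control. Gse1, whose exons overlap those of Gins2, read 15.02 to 16.6 FPKM in controls and 11.1 to 14.1 in mutants, also lower and without overlap, and shared reads were not tested. The log2 difference of Gins2 was -0.58 (SE 0.22, 95% interval -1.10 to -0.062, adjusted p = 0.919 by limma).

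Mutant library 1 of the Igf2 model had the lowest value of the 7 libraries for 19 of 42 members (45.2%), against 24.5% of all genes. For Mcm5 and Mcm6, examples taken after their values were seen, it stood apart. It read 3.62 FPKM for Mcm5, where the other 6 libraries read 11.3 to 14.8. For Mcm6 it read 14.8 FPKM against 29.3 to 39.3 in the others. Without that library the members' median log2 difference was 0.016, on the other side of 0, beside -0.0066 for all genes. By role, the 4 genes of chromatin assembly and methylation maintenance were all below 0 (median -0.23), and both single-strand binding genes were above 0 (median 0.12), none past the threshold. The 8 acinar markers summed to 28164 to 40270.4 FPKM in the controls and 81705 to 94307 in the mutants, without overlap, and 7 of 8 had a log2 difference above 0. The 5 ductal markers summed to 1051 to 1407 FPKM in controls and 823 to 1002 in mutants, also without overlap. The 5 leukocyte markers summed to 363 to 592 and 523 to 777 FPKM, with all 5 above 0 in log2 difference. The 4 erythroid markers present in the table were all below 0 (median -0.53), with overlapping sums of 135 to 883 and 133 to 341 FPKM. Of these lists only Pnlip, an acinar marker, was listed at 0 in any library, and that among controls. The part of cell composition in the members' values was not tested.

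Mesenchymal cells of the H19DMD model were compared next, which asks whether the cells that carry more Igf2 RNA differ in their replication genes. Most members were lower in the mutants, by small amounts: 34 of 42 had a log2 difference below 0 (80.95% against 57.3% of all genes), with a median of -0.25 against -0.066 for all genes. No member passed the threshold (0 of 42 by limma with adjustment over 15856 genes, where 0.0694% of all genes passed). At an unadjusted p under 0.05 there were 2 of 42, Dnmt1 and Mcm6, against 4.76% of all genes. Groups did not overlap for 3 of 42, Dnmt1, Mcm6 and Rrm1, each lower in the mutants, against 5.39% of all genes. Rrm1 was named after its values were seen, and its p was not under 0.05.

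**Figure D2:**
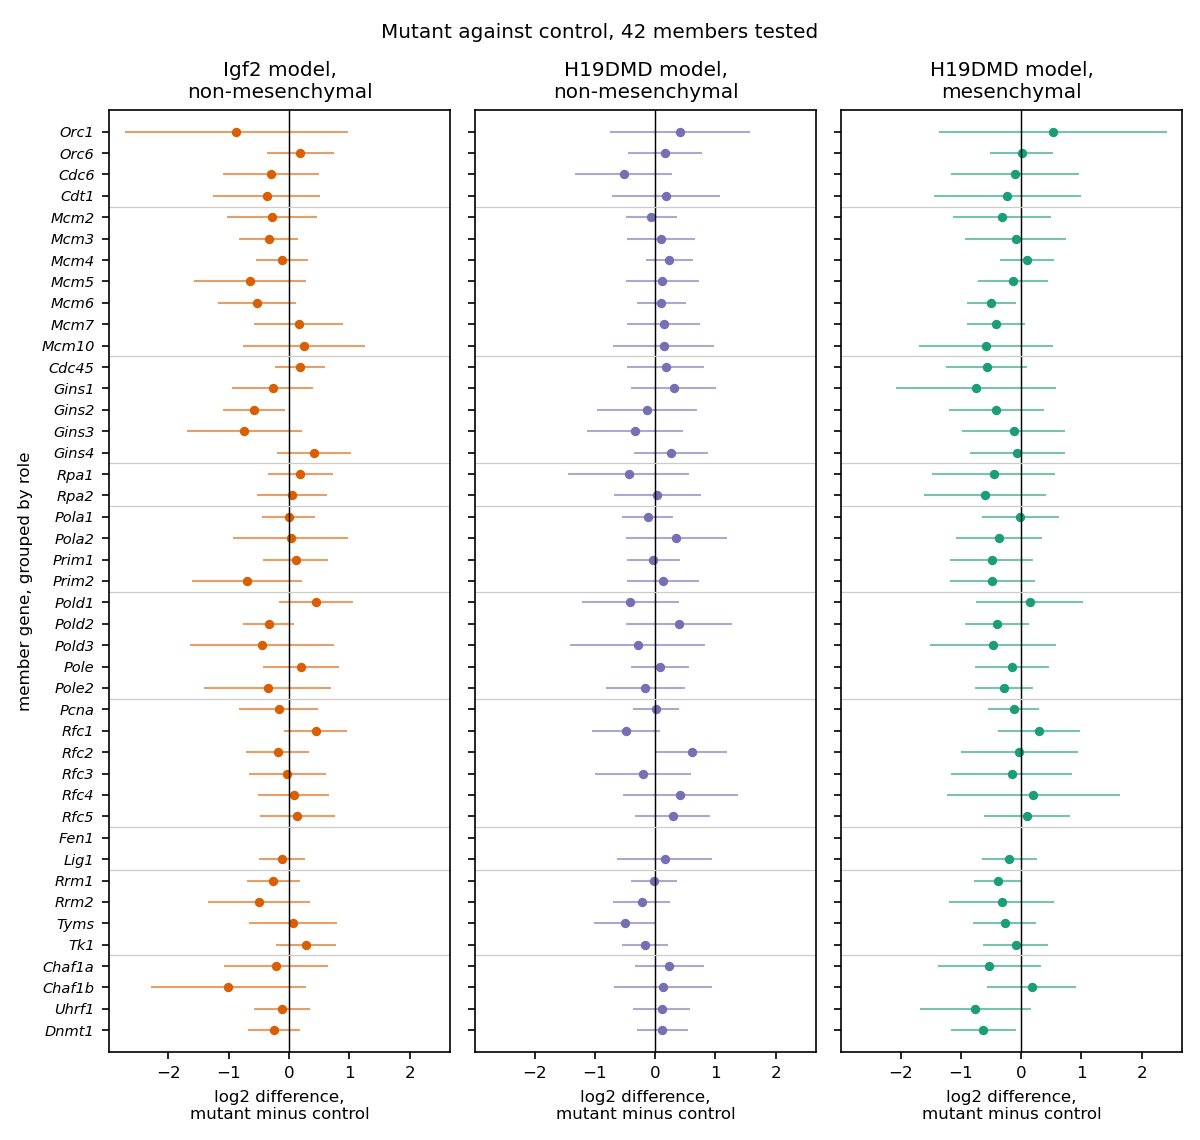
Log2 difference, mutant minus control, of each of the 42 members tested (point) with its 95% interval from limma (line), grouped by role, in non-mesenchymal cells of the Igf2 model (4 controls, 3 mutants) and both fractions of the H19DMD model (3 controls, 4 mutants each). In mesenchymal cells 34 points lie left of 0, in the other panels 26 and 16, and Fen1 has no point.

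Dnmt1, the DNA methyltransferase that copies methylation onto new strands (chr9:20907209-20959888 on GRCm38, minus strand), read 16.1, 17.7 and 20.9 FPKM in mesenchymal controls, 13.9, 12.7, 7.87 and 12.2 in mesenchymal mutants, 16.7, 15.4 and 21.2 in non-mesenchymal controls and 18.8, 21.2, 15.9 and 21.3 in non-mesenchymal mutants. Every mesenchymal mutant was below every other library of the table, and mutant 3 was the lowest. Its log2 difference in mesenchymal cells was -0.62 (SE 0.23, 95% interval -1.16 to -0.085, unadjusted p = 0.0289, adjusted p = 0.927 by limma). Mcm6, a subunit of the helicase ring (chr1:128331590-128359664, minus strand, with the upstream E2F letters printed above), read 20.03, 25.1 and 23.1 FPKM in mesenchymal controls, 17.6, 14.98, 13.4 and 17.6 in mesenchymal mutants, 22.1, 27.5 and 22.3 in non-mesenchymal controls and 22.5, 23.6, 26.4 and 31.3 in non-mesenchymal mutants. Again the 4 mesenchymal mutants were the 4 lowest libraries of the table. Its log2 difference was -0.49 (SE 0.17, 95% interval -0.91 to -0.08, unadjusted p = 0.0255, adjusted p = 0.927 by limma). Both adjusted values are far from the threshold.

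By role, all members tested were below 0 among the CMG partners (5 of 5, median -0.41), the polymerase alpha and primase genes (4 of 4, -0.42), the genes of nucleotide supply (4 of 4, -0.29) and both single-strand binding genes (-0.53). The genes of chromatin assembly and methylation maintenance had the lowest median (-0.575), with 3 of 4 below 0 and Chaf1b above at 0.18. In the MCM group 6 of 7 were below 0, with Mcm4 the 1 above at 0.095, as were 4 of 5 genes of polymerases delta and epsilon. The clamp and its loader were split, 3 above and 3 below, with Rfc1 at 0.30, and so were the origin licensing genes, 2 above and 2 below. Intervals were wide, as in these examples taken after their values were seen: that of Uhrf1, which brings Dnmt1 to new DNA and had the lowest estimate (-0.76), ran from -1.68 to 0.16, and that of Orc1 from -1.37 to 2.41. Uhrf1 read 29.3 FPKM in mesenchymal control 3, against 11.2 and 13.4 in the other controls and 6.79 to 13.5 in the mutants.

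Averaged over the 43 members, log2(FPKM + 1) was 3.78, 3.74 and 3.79 in the mesenchymal controls and 3.65, 3.64, 3.21 and 3.63 in the mutants. The groups did not overlap on this mean, and mutant 3 stood apart from the other 3 mutants. The mean over all genes with at least 1 FPKM was also lowest in mutant 3, at 2.87, against 3.02 to 3.09 in the other mutants and 3.04 to 3.14 in the controls. Mutant 3 had the lowest of 14 values for 15 of 42 members (35.7%), against 13.7% of all genes. Without it the members' median was -0.17, with 31 of 42 below 0, and the all-gene median was -0.022. The mesenchymal markers gave 3 of 9 above 0 (median -0.042). The 5 leukocyte markers summed to 15.2 to 28.7 FPKM in controls and 24.4 to 66.8 in mutants, with Cd52 at 0 in all mutants, and the 5 ductal markers to 32.1 to 75.02 and 11.4 to 32.6. The 7 endocrine markers summed to 52.4 to 205 and 30.5 to 117 FPKM, and all 4 that could be tested were below 0. The part of these cells in the members' values was not tested.

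**Figure D3:**
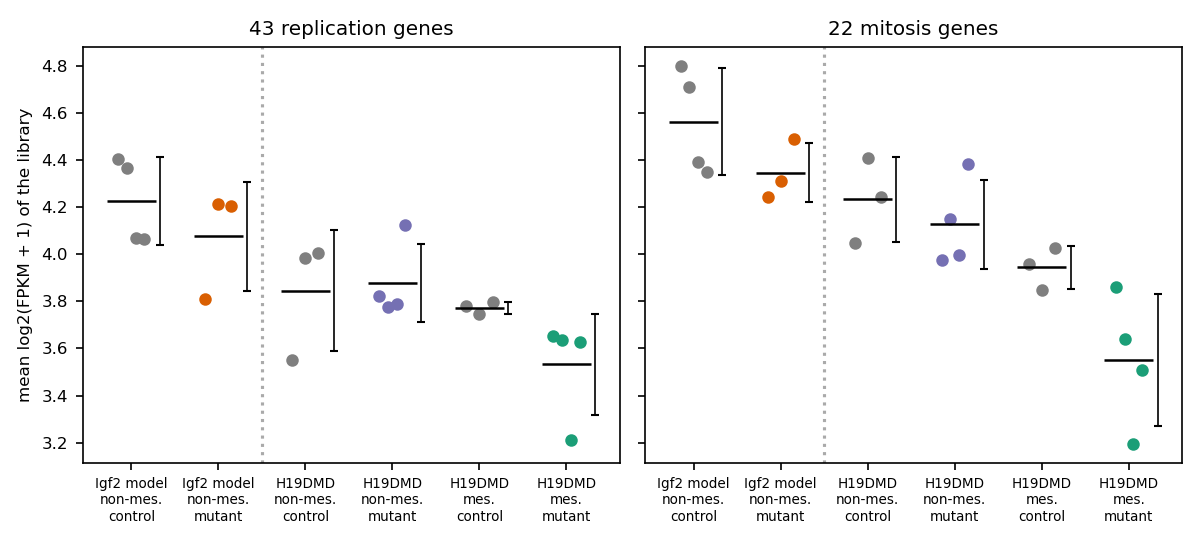
Mean log2(FPKM + 1) of each library over the 43 replication genes (left) and over 22 genes of mitosis (right), 1 point per library, with the group mean (horizontal line) and SD (error bar). The dotted line separates the Igf2 and H19DMD tables, mes. means mesenchymal, and the 4 mesenchymal mutants lie at 3.21 to 3.65 on the left.

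Non-mesenchymal cells of the H19DMD model lie beside a mesenchyme with more Igf2 RNA. Their replication genes were split in direction, with 26 of 42 members above 0 and 16 below (61.9% above 0 against 56.1% of all genes). Their median log2 difference was 0.11 against 0.054 for all genes. By limma 0 of 42 passed the threshold (0.0677% of all 16239 genes passed), 1 of 42 had an unadjusted p under 0.05 (5.35% of all genes) and groups did not overlap in 0 of 42 (5.68% of all genes). The 1 member was Rfc2, a small subunit of the clamp loader, which read 8.49, 7.64 and 7.62 FPKM in controls and 15.8, 16.4, 8.43 and 11.2 in mutants, with mutant 3 inside the control range. Its log2 difference was 0.60 (SE 0.25, 95% interval 0.019 to 1.19, adjusted p = 0.894 by limma). Lat2 covers 15.1% of the exon bases of Rfc2 from the opposite strand. In the mesenchymal libraries Rfc2 read 8.56, 9.08 and 13.002 FPKM in controls and 12.1, 8.76, 4.66 and 17.9 in mutants, and in the Igf2 model it read 15.8, 17.3, 15.6 and 22.9 FPKM in controls and 12.9, 14.2 and 19.9 in mutants. The 4 genes of nucleotide supply were all below 0 (median -0.19) and 6 of 7 MCM genes above (median 0.12), none past the threshold.

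The sign of that median rested on single libraries. It was -0.069 without non-mesenchymal control 1, the lowest control, and -0.021 without mutant 4, which had the highest value of the 14 libraries for 14 of 42 members, against 10.4% of all genes. The 4 erythroid markers present in the table summed to 23.1 to 94.2 FPKM in controls and 46.9 to 327 in mutants, with all 4 above 0 in log2 difference, and the 7 endocrine markers summed to 18761 to 28402 and 10139 to 19467. All 7 acinar markers tested were below 0 (median -0.24), all 5 ductal markers above (median 0.28), and 6 of 7 mesenchymal markers tested above (median 0.22). Igf2 itself read 48.2 ± 4.38 FPKM (SD, n = 3) in the non-mesenchymal controls and 108 ± 50.9 (SD, n = 4) in the mutants, with overlap. Pnlip, an acinar marker, was listed at 0 in at least 1 control library. The part of these cells in the members' values was not tested.

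Whether the mutant difference itself differed between fractions was tested as the interaction of genotype and fraction over the 14 H19DMD libraries. No member passed (0 of 42 by limma, 0.0117% of 17105 genes), and 2 of 42 had an unadjusted p under 0.05 (6.35% of all genes). These were Dnmt1 (-0.74, SE 0.28, 95% interval -1.35 to -0.13, adjusted p = 0.755 by limma) and Mcm6 (-0.60, SE 0.23, 95% interval -1.10 to -0.10, adjusted p = 0.755 by limma), where a negative value means that the mutant difference was lower in mesenchymal cells. Rfc1 had the next lowest p, with a positive value (0.79, 95% interval -0.052 to 1.63, adjusted p = 0.807 by limma). Of the members 32 of 42 were below 0 (76.2% against 58.9% of all genes), with a median of -0.24 against -0.11 for all genes. Scaling the libraries by their median ratio moved the all-gene median of this comparison to -0.0048 and the members' median to -0.13. The members' median was -0.063 without non-mesenchymal control 1, -0.15 without non-mesenchymal mutant 4, -0.38 without non-mesenchymal control 2, -0.37 without non-mesenchymal control 3 and -0.36 without mesenchymal mutant 4.

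The 2 cell fractions were then compared within genotype, which asks how the mesenchyme and the rest of the pancreas differ in these genes. Among controls, 0 of 42 members passed the threshold by limma, whereas 22.6% of all 16732 genes did. At an unadjusted p under 0.05 there were 2 of 42 (34.2% of all genes): Pold2, the second subunit of polymerase delta, higher in mesenchymal cells, and Rrm2, the small subunit of ribonucleotide reductase, lower. Groups did not overlap in 6 of 42 (39.9% of all genes), Pold2 and Rfc2 higher and Mcm2, Pcna, Rrm2 and Tyms lower in mesenchymal cells, named after their values were seen. The members' median was -0.088 against 0.08 for all genes, with 24 of 42 below 0 (57.1% against 45.8% of all genes). The members' log2 differences ran from -1.18 to 0.64. The sign of this median changed without non-mesenchymal control 3 (0.021). A single member passed under each of a pair of changes: Rrm2 after median-ratio scaling, and Lig1 without non-mesenchymal control 1 (log2 difference -0.84, adjusted p = 0.0227 by limma). In the same controls 9 of 9 mesenchymal markers had a log2 difference above 0, and all acinar, endocrine, ductal and leukocyte markers tested had a log2 difference below 0, while all 5 endothelial markers were above 0 (median 1.01).

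Among mutants 6 of 42 members passed the threshold by limma, where 28.6% of all 16767 genes did, so a smaller share of the members was called than of all genes. In mesenchymal mutants 1 member was higher (all genes 13.5%) and 5 were lower (all genes 15.1%). At an unadjusted p under 0.05 there were 12 of 42 (39.1% of all genes), and groups did not overlap in 8 of 42 (31.0% of all genes). Of the members 33 of 42 were below 0 (78.6% against 51.6% of all genes), with a median of -0.37 against -0.032. All 7 MCM genes were below 0 (median -0.56), as were all 4 genes of chromatin assembly and methylation maintenance (-0.43), while 3 of 5 genes of polymerases delta and epsilon were above 0 (0.12). The mesenchymal mutants had the lowest mean of the 4 groups for 23 of 42 members (54.8%), against 27.98% of all genes, and the non-mesenchymal mutants had the highest for 17, against 27.4% of all genes.

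The 5 lower members act at the fork and behind it. Cdc45, the partner that activates the MCM helicase (chr16:18780447-18811987, minus strand), read 7.15, 5.36 and 6.19 FPKM in mesenchymal controls, 3.22, 5.001, 2.39 and 5.38 in mesenchymal mutants, 8.55, 6.06 and 9.41 in non-mesenchymal controls and 10.2, 6.501, 7.58 and 13.02 in non-mesenchymal mutants. All mesenchymal mutants were below all non-mesenchymal mutants, the log2 difference was -1.05 (SE 0.29) and the adjusted p was 0.0267 by limma. Between the control fractions the same difference for Cdc45 was -0.30 (95% interval -0.86 to 0.25). Mcm7 (chr5:138164583-138172422, minus strand), whose values are given above, differed by -0.90 (SE 0.24, adjusted p = 0.0250 by limma) between mutant fractions and by -0.34 (95% interval -0.82 to 0.14) between control fractions. A pseudogene, Gm5487, is 97.7% identical to Mcm7 over 2157 bases. Mcm6 differed by -0.67 (SE 0.16, adjusted p = 0.0165 by limma) in mutants and by -0.073 (95% interval -0.51 to 0.36) in controls, the latter estimate being close to 0.

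Lig1 (chr7:13277283-13311433, plus strand) differed by -0.88 (SE 0.25, adjusted p = 0.0319 by limma) between mutant fractions and by -0.53 (95% interval -1.25 to 0.20) between control fractions. Its non-mesenchymal mutant 4, at 183 FPKM, stood far above the other 3. Dnmt1 differed by -0.70 (SE 0.20, adjusted p = 0.0328 by limma) in mutants and by 0.042 (95% interval -0.44 to 0.52) in controls. Rfc1 (chr5:65261850-65335670, minus strand) was the 1 member higher in mesenchymal mutants, and it read 52.5, 58.6 and 26.9 FPKM in mesenchymal controls, 55.4, 49.7, 64.7 and 47.8 in mesenchymal mutants, 28.9, 50.6 and 47.6 in non-mesenchymal controls and 28.6, 34.1, 31.7 and 23.3 in non-mesenchymal mutants. All 4 mesenchymal mutants were above all 4 non-mesenchymal mutants, whereas the control fractions overlapped. Its log2 difference was 0.87 (SE 0.17, adjusted p = 0.00556 by limma) in mutants and 0.082 (95% interval -0.83 to 0.99) in controls. In the Igf2 table Rfc1 read 28.4, 23.5, 36.7 and 26.1 FPKM in controls and 47.3, 30.1 and 40.8 in mutants. Mcm6 read 39.3, 29.3, 36.3 and 35.8 FPKM in controls and 14.8, 30.4 and 30.3 in mutants there. The groups of that table overlapped for both, and also for Cdc45 and Dnmt1. Cdc45 read 9.95, 9.11, 9.07 and 7.11 FPKM in controls and 9.75, 10.03 and 10.5 in mutants. Dnmt1 read 33.1, 26.1, 27.7 and 25.7 FPKM in controls and 19.03, 26.6 and 25.6 in mutants. For none of these 6 members did the interaction pass the threshold, so a difference between mutant and control fractions is not shown.

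**Figure D4:**
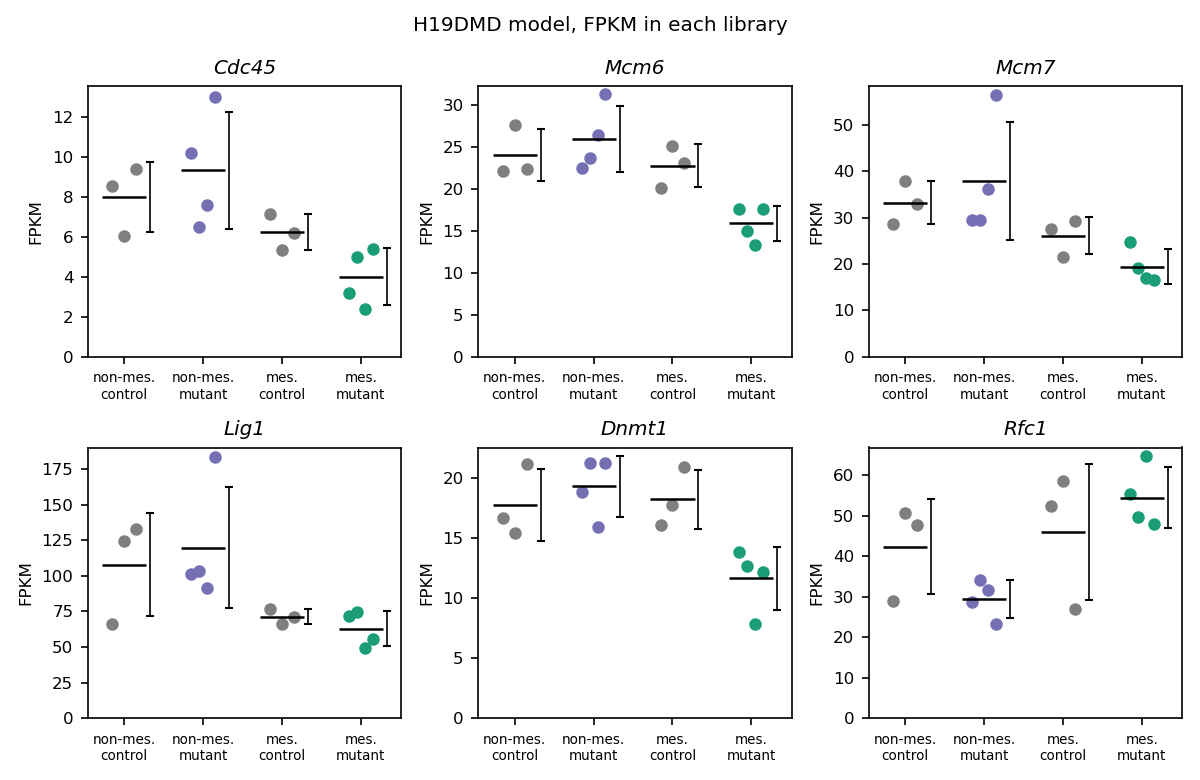
FPKM of the 6 members that passed the threshold between mutant fractions, 1 point per library of the H19DMD table, with the group mean (line) and SD (error bar), mes. meaning mesenchymal. Mesenchymal mutants lie below both non-mesenchymal groups for Dnmt1 and Mcm6 and above the non-mesenchymal mutants for Rfc1.

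Mcm6 and Rfc1 passed the threshold in every setting run. Each of the other calls between mutant fractions was lost on leaving out any 1 of several libraries, which also left fewer libraries in the fit. The members' median was -0.23 without mesenchymal mutant 3. The count of members called fell from 6 to 3 without mesenchymal mutant 3, mesenchymal mutant 4 or non-mesenchymal mutant 1, where the share of all genes called was 25.6%, 25.2% and 24.1%. Cdc45 missed the threshold, with the adjusted p from limma in brackets, without mesenchymal mutant 1 (0.0619), mesenchymal mutant 3 (0.0596), non-mesenchymal mutant 1 (0.0702) or non-mesenchymal mutant 4 (0.0720). Mcm7 missed it without mesenchymal mutant 2 (0.0553), mesenchymal mutant 3 (0.0614), mesenchymal mutant 4 (0.0621) or non-mesenchymal mutant 3 (0.0568). Lig1 missed it without mesenchymal mutant 3 (0.0773), mesenchymal mutant 4 (0.0749), non-mesenchymal mutant 1 (0.0518) or non-mesenchymal mutant 2 (0.0556). Dnmt1 missed it without mesenchymal mutant 2 (0.0527), mesenchymal mutant 4 (0.0556), non-mesenchymal mutant 1 (0.0683), non-mesenchymal mutant 2 (0.0843) or non-mesenchymal mutant 4 (0.0854). The log2 differences of these 4 members stayed below 0 in each of those fits. With all libraries kept and the replicate number as a block in the fit, Mcm7 and Lig1 also missed the threshold.

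A wider list of 54 genes around replication, of which 53 were in the tables and none is a member, was read the same way. In the 3 mutant comparisons 0 of its genes passed the threshold by limma, and 3 had an unadjusted p under 0.05 in each of them, of 53 tested in the Igf2 table and 52 in the H19DMD table. The shares of all genes at that p were 5.28%, 4.76% and 5.35%, so the list stood near them. Between control fractions 0 of 52 were higher in mesenchymal cells (all genes 12.4%) and 4 of 52 lower (all genes 10.3%). Between mutant fractions 4 of 52 were higher (all genes 13.5%) and 8 of 52 lower (all genes 15.1%), the latter at about the share of all genes. Gmnn, which encodes geminin, the inhibitor of CDT1, had the largest difference between mutant fractions and read 4.92, 4.76 and 0.376 FPKM in mesenchymal controls, 1.74, 2.24, 1.39 and 4.697 in mesenchymal mutants, 10.5, 12.4 and 11.6 in non-mesenchymal controls and 14.9, 12.4, 14.7 and 21.7 in non-mesenchymal mutants. All 7 mesenchymal libraries were below all 7 non-mesenchymal libraries, and the difference between mutant fractions was -2.32 (SE 0.30, adjusted p = 0.000712 by limma). Cdc7, a kinase that activates loaded MCM, went the other way and read 117, 84.9 and 97.5 FPKM in mesenchymal controls, 88.8, 94.97, 109 and 139.7 in mesenchymal mutants, 61.3, 61.3 and 72.7 in non-mesenchymal controls and 51.7, 56.4, 55.9 and 67.01 in non-mesenchymal mutants. All mesenchymal libraries were above all non-mesenchymal libraries, with a difference of 0.88 (SE 0.17, adjusted p = 0.00637 by limma) between mutants. Gmnn and Cdc7 kept their call between mutant fractions in every setting run for them.

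Also between mutant fractions, Orc4, of the origin recognition complex, was higher in mesenchymal cells by 0.89 (SE 0.21, adjusted p = 0.0151 by limma) and E2f7, a repressor of the E2F family, by 0.73 (SE 0.19, adjusted p = 0.0223 by limma). E2f2, an activator of the family, was lower at -1.69 (SE 0.29, adjusted p = 0.00300 by limma), as was Dctpp1, a nucleotide pyrophosphatase, at -1.62 (SE 0.46, adjusted p = 0.0314 by limma). E2f7 missed the threshold without mesenchymal mutant 2 (0.0614) or 3 (0.0565), or non-mesenchymal mutant 1 (0.0584) or 2 (0.0616). Dctpp1 missed it without mesenchymal mutant 3 (0.0722) or any of non-mesenchymal mutants 1 to 4 (0.0587 to 0.0743). With all libraries kept and the replicate number as a block in the fit, Orc4 and E2f7 missed it. Between control fractions E2f8, another repressor of the family, was lower in mesenchymal cells at -1.22 (SE 0.26, adjusted p = 0.0199 by limma), Rnaseh2c, a subunit of ribonuclease H2, at -1.41 (SE 0.38, adjusted p = 0.0464 by limma) and Dctpp1 at -2.14 (SE 0.59, adjusted p = 0.0498 by limma). Each of these 3 calls was lost on leaving out any 1 of several libraries, which also left fewer libraries in the fit. E2f8 read 7.43, 8.35 and 14.2 FPKM in mesenchymal controls and 23.3, 24.5 and 23.5 in non-mesenchymal controls, without overlap. E2f8 missed the threshold without mesenchymal control 1 or 2 or non-mesenchymal control 1, 2 or 3 (adjusted p = 0.0558 to 0.0691 by limma). Rnaseh2c missed the threshold without mesenchymal control 2 or 3 or non-mesenchymal control 2 or 3 (adjusted p = 0.123 to 0.141 by limma). Dctpp1 missed the threshold without mesenchymal control 1, 2 or 3 or non-mesenchymal control 2 or 3 (adjusted p = 0.0716 to 0.149 by limma).

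The 22 genes of mitosis, such as Mki67, Top2a and Cdk1, serve as a second view of dividing cells, with promoters that differ in the letters given above. Their median log2 difference was -0.27 in the Igf2 model, where 17 of 22 were below 0 (52.9% of all genes were). In mesenchymal cells of the H19DMD model it was -0.40, with 21 of 22 below 0 (57.3% of all genes were). It was -0.13 in non-mesenchymal cells of that model. In these 3 mutant comparisons 0 of 22 passed the threshold by limma, and 1 of 22 had an unadjusted p under 0.05 in each. Their mean log2(FPKM + 1) was lowest in mesenchymal mutant 3 (3.195), against 3.507 to 3.861 in the other mesenchymal mutants. Between fractions the median was -0.19 in controls and -0.58 in mutants. In each of these 5 comparisons the median of the mitosis genes lay below that of the members, which was -0.15, -0.25, 0.11, -0.088 and -0.37 in the same order, and the comparisons share libraries. Members with the E2F letters in a window (16) and those with a window but no such letters (19 tested) had medians of -0.18 and -0.32 in mesenchymal cells of the H19DMD model, and -0.32 and 0.067 in the Igf2 model. The members with the letters had the higher median in the first case and the lower in the second.

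**Figure D5:**
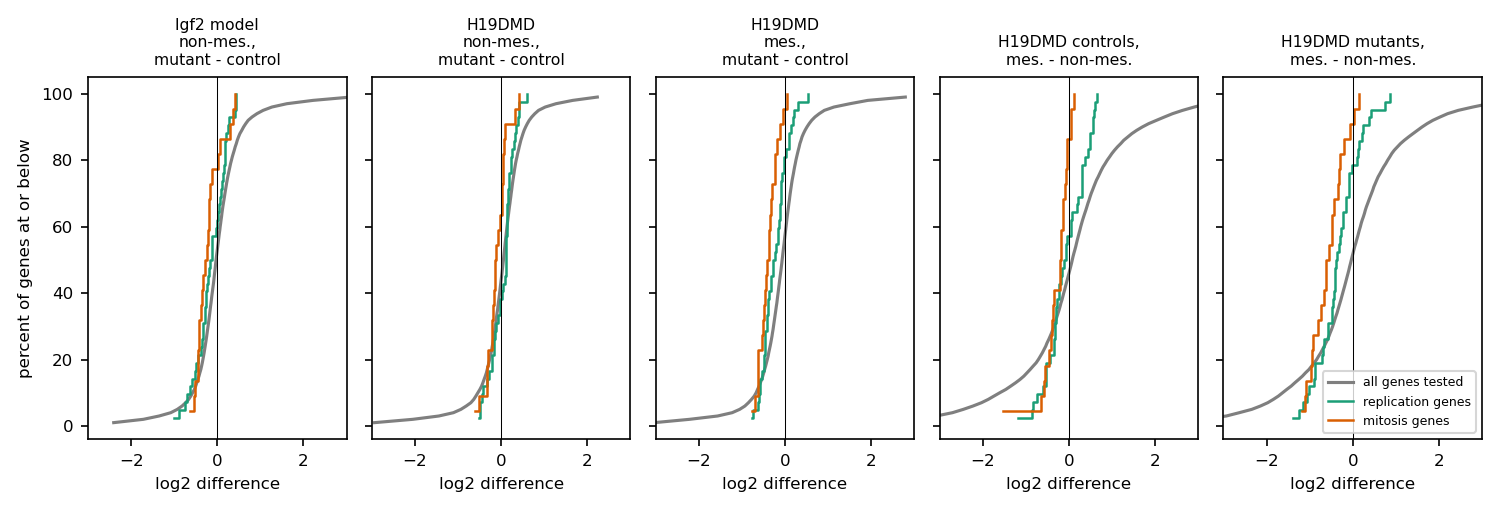
Cumulative distribution of log2 differences in 5 comparisons, as the percent of genes at or below each value, for all genes tested (grey, percentiles 1 to 99), the replication genes (green) and the mitosis genes (orange), mes. meaning mesenchymal. Among mesenchymal cells 34 of 42 replication and 21 of 22 mitosis genes lie left of 0, and between mutant fractions 33 of 42 and 20 of 22 do.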

How the data were processed

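RNA of sorted pancreatic cells was measured in 21 libraries with values, and 8 further columns of the Igf2 table held no values and were not used. The deposited values are FPKM per gene, per the file headers. Alignment with TopHat2 2.0.8 to GRCm38 and quantification with Cufflinks 2.2.1 are named in the submitters' processing notes. About 2 ng of total RNA had been amplified before sequencing, per the labels' protocols, and no counts or depths were used, so no counting interval is given. Genes whose mean reached 1 FPKM in the libraries of a comparison were tested on log2(FPKM + 1) with limma 3.58.1 in R 4.3.3 (trended empirical Bayes, two-sided, Benjamini-Hochberg over all genes tested, threshold 0.05), within a table only. Fold changes on this scale understate those of low genes. The code was tested on simulated data. Genes are named by rule: the highest member of each role, members under an unadjusted p of 0.05 between genotypes, up to 4 members a direction past the threshold between fractions, the 3 lowest p of the interaction, and up to 3 wider genes a direction. Members and lists were chosen with earlier results of these data known. Gene positions and exon overlaps are from GENCODE M21, and near-identical copies from BLAST 2.17.0.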

Additional observations from a re-analysis of the deposited data

Results flagged for a closer look

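A total of 3 of the 129 pairs of a member and a group with 4 libraries held a library far from the rest by Dixon's criterion, 2.33%, where chance gives about 5%. Orc1 read 34.4 FPKM in control 2 of the Igf2 model, against 2.16 to 5.63 in the other controls. Lig1 read 183 FPKM in non-mesenchymal mutant 4 of the H19DMD model, against 91.5 to 103 in the other mutants. Fen1 read 0.239 FPKM in mesenchymal mutant 2 and was listed at 0 in the other 3 mesenchymal mutants.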

How the results depend on the processing

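The count of members past the threshold stayed at 0 in every setting run for the 3 mutant comparisons and the interaction. Leaving out a library moved it between 0 and 1 for control fractions (1 without non-mesenchymal control 1) and between 3 and 7 for mutant fractions. Median-ratio scaling gave 1 for control fractions and moved the all-gene median there from 0.08 to -0.03 and the members' median from -0.088 to -0.21. In non-mesenchymal cells of the H19DMD model it moved the members' median from 0.11 to 0.046. In mesenchymal cells it moved the members' median from -0.25 to -0.19 and the all-gene median from -0.066 to 0.003. The members below 0 there went from 34 to 31 of 42. The members' median ran over left-out libraries from -0.21 to 0.016 in the Igf2 model, -0.30 to -0.17 in mesenchymal and -0.069 to 0.13 in non-mesenchymal cells of the H19DMD model, -0.24 to 0.021 for control and -0.44 to -0.23 for mutant fractions and -0.38 to -0.063 for the interaction. Between control fractions the estimates nearest 0 changed sign: Rfc1 was -0.043 and Dnmt1 -0.0796 after median-ratio scaling, and over left-out libraries Rfc1 ran from -0.17 to 0.42, Dnmt1 from -0.056 to 0.17 and Mcm6 from -0.14 to 0.026. The cause was not tested. Without the 12 members whose reads may be shared, chosen after seeing the data, the median in mesenchymal cells was -0.27 and 5 of 31 members passed between mutant fractions. With all 4 groups in 1 fit, 8 of 42 passed there, and 32.3% of all genes.

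Replicate numbers are shared between groups. Between mutants and controls, deviations of same-numbered libraries correlated by -0.0586 to 0.0491. Between the 2 fractions, where a number could mark 1 animal, all were above 0: 0.0214 to 0.0740 in controls and 0.0135 to 0.0525 in mutants. Differently numbered libraries of the 2 fractions gave -0.0483 to 0.0149 and -0.055 to 0.0399. No pair passed the minimum of 0.1 set for pairing, so the main fits were unpaired, but these values cannot exclude pairing. All 6 control libraries and 6 of 8 mutant libraries of the 2 fractions correlated best with their own number, a hint from the data and not the design. With the replicate number as a block, members past the threshold were 4 of 42 between mutant fractions (all genes 24.7%), where Mcm7 (adjusted p = 0.0749 by limma) and Lig1 (0.0629) missed it, and 0 in the other comparisons. Of the wider genes, Orc4 (0.0602) and E2f7 (0.0519) missed it between mutant fractions, as did all 3 named between control fractions (adjusted p = 0.0533 to 0.137), and the members' median in non-mesenchymal cells of the H19DMD model was -0.021. Depth is unknown, so what low counts limit could not be worked out.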
